A study of Mus musculus with 9 samples.

Results

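The genes described here encode the ligands and receptors that steer growing axons, read out in sorted midbrain dopamine (DA) neurons of mouse embryos that carried 0, 1 or 2 floxed Dot1l alleles. They were taken by gene symbol: semaphorins, plexins, neuropilins, Eph receptors, ephrins, Slits, Robos, netrins, the netrin receptors of the Unc5 family, Dcc and Neo1. The symbols matched 72 of the 47729 genes in the count files. Of these, 69 are ligand or receptor genes and 3 are antisense transcripts named after Plxna4. All embryos carried 1 copy of Pitx3-Cre and a Rosa lox-stop-lox Yfp reporter on a C57/Bl6 background, and were taken in the third week of gestation. Cre is made from the Pitx3 gene, which among midbrain neurons marks the DA lineage, so deletion of Dot1l and the reporter both depend on that gene. Reporter-positive cells were sorted by their fluorescence, and per the study 3 or 4 embryos were pooled for each library, with the genotypes taken in matched sets from each litter. The controls, Dot1l(+/+), carried Cre but no floxed allele, Dot1l(fl/+) carried 1 and Dot1l(fl/fl) carried 2. Dot1l encodes the enzyme that methylates lysine 79 of histone H3.

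Axon guidance cues act in pairs of ligand and receptor. Netrins attract axons through Dcc and neogenin (Neo1) and can repel them through Unc5 receptors, Slits repel through Robo receptors, secreted class 3 semaphorins bind neuropilins that signal through A-type plexins, and most membrane-bound semaphorins bind plexins directly. Ephrins are anchored to the membrane and bind Eph receptor tyrosine kinases on the neighbouring cell, with signals passing into both cells. In the midbrain these systems guide DA axons forward through the medial forebrain bundle and into the striatum, and Dcc, neuropilin 2 and plexin C1 are among the receptors known to act in DA axons.

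Of 9 samples in the labels, 8 had libraries that entered the work, 3 from Dot1l(+/+), 3 from Dot1l(fl/+) and 2 from Dot1l(fl/fl). They held 13616922 to 43674673 counts, with both Dot1l(fl/fl) libraries the shallowest. Dot1l(fl/fl) 3 was not analysed here. Dot1l itself was at 105.2, 84.6 and 94.6 CPM (counts per library, scaled to 1 common depth) in Dot1l(+/+), 75.5, 65.6 and 76.2 CPM in Dot1l(fl/+), whereas the pair labelled Dot1l(fl/fl) had 64.9 and 99.1 CPM. The library labelled Dot1l(fl/fl) 2 therefore lay inside the control range for the targeted gene, although a gene-level count does not isolate the floxed exon. The defining DA genes were abundant in every library, with Th between 649.5 and 1047 CPM and Slc6a3 between 606.9 and 826.0 CPM. The summed CPM of 15 midbrain DA markers was 7135 to 8069 in Dot1l(+/+), 6993 to 7538 in Dot1l(fl/+) and 5718 to 6796 with both alleles floxed. Markers of other cells were low: 10 endothelial genes summed to between 6.45 and 20.3 CPM per library, and 10 mural cell and fibroblast genes to between 4.71 and 9.44 CPM. Radial glia and progenitor markers summed to between 222.6 and 263.7 CPM, and microglial markers to between 83.7 and 122.8 CPM. GABAergic neuron markers summed to 203.6 to 223.9 CPM in Dot1l(+/+), 195.7 to 230.0 CPM in Dot1l(fl/+) and 234.7 to 264.0 CPM with both alleles floxed, while 4 glutamatergic neuron markers summed to between 169 and 216 CPM per library. Of 6 blood genes 2 had an unadjusted p under 0.05 and a higher level in Dot1l(fl/fl) than in the controls, beside 4.24% of all genes tested. The sum of the 6 was 33.4 CPM in Dot1l(fl/fl) 2 as labelled and at most 18.7 CPM in the other libraries. Markers of oligodendrocyte precursors, serotonergic and cranial motor neurons and skeletal muscle summed to at most 12.6 CPM each.

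Most of the guidance genes were detected in the sorted control pools, whose counts do not tell DA neurons from the few other cells. Of the 69 ligand and receptor genes, 59 had at least 1 CPM in each of the Dot1l(+/+) libraries, 53 had at least 10 CPM and 21 had at least 100 CPM. To compare genes with each other, the level per length (CPM per kb of exon) was used. The median over the 67 members that passed the filter on low counts was 9.15 CPM per kb, beside 3.82 for all genes tested. The 5 members that did not pass were Epha1 and Ntn5, with 0 counts in every library, and the antisense transcripts Plxna4os1, Plxna4os2 and Plxna4os3, of which the most abundant had 11 counts over all libraries. For a gene at 0, a count of 3 sets an upper limit of 0.0687 to 0.22 CPM depending on the library, which covers counting error only. Passing the filter was required before testing, and 10 of the 69 ligand and receptor genes stayed below 3 CPM in every library.

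2 ligands stood above the other members. Ntn1, the gene of the secreted attractant netrin-1, had 189 ± 27.5 CPM per kb (SD, n = 3) in Dot1l(+/+), and Efnb3, which encodes the membrane ligand ephrin-B3, had 172 ± 13.8. The ranges of these genes over the control libraries overlapped, so their order is not settled, while both lay above every other member. Netrin-1 made up 97.7% of the summed level of the netrin family and ephrin-B3 made up 76.0% of the ephrins, each taken per length. Among the other ephrins, Efna2 had 14.3 ± 1.49, Efna3 12.4 ± 1.02, Efna5 8.34 ± 0.783 and Efnb2 5.8 ± 0.737 CPM per kb. The other netrin tested, Ntn4, had 4.51 ± 0.63 CPM per kb.

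The receptors for netrin were led by Neo1, with 42.8 ± 4.3 CPM per kb, followed by the repulsive receptor Unc5a with 11.8 ± 2.28 and by Dcc, the main attractive receptor, with 8.83 ± 2.77. Neither of the last genes was separated from the other, since their control libraries overlapped. Unc5c was the lowest of the family at 1.1 ± 0.325 CPM per kb. Of the Slit repellents, Slit1 had 29.2 ± 5.25, Slit2 6.24 ± 0.96 and Slit3 0.179 ± 0.085 CPM per kb, so Slit1 and Slit2 lay far above Slit3. Their receptors Robo1 and Robo2 had 21.2 ± 2.06 and 14.4 ± 0.906 CPM per kb, whereas Robo3, which in commissural neurons dampens the response to Slit, was at 0.103 ± 0.0559.

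Among the secreted semaphorins, Sema3f, a repellent that binds neuropilin 2, reached 14.3 ± 1.07 CPM per kb and made up 82.1% of the family. Sema3c had 1.01 ± 0.235, Sema3e 0.934 ± 0.095 and Sema3a, the classical ligand of neuropilin 1, 0.273 ± 0.0424 CPM per kb. Membrane semaphorins were led by Sema6c (30.3 ± 0.837), Sema6b (30.2 ± 1.82) and Sema4g (23.2 ± 1.21 CPM per kb), the first and second of which overlapped. Sema7a, the membrane-anchored ligand of plexin C1, had 11.2 ± 0.663 CPM per kb. Of the co-receptors, Nrp2 was at 27.7 ± 2.88 and Nrp1 at 10.7 ± 1.47 CPM per kb, with no overlap between their control libraries. Plexins were led by Plxna1 (55.7 ± 7.8), Plxna3 (40.9 ± 5.57) and Plxnb2 (36.2 ± 3.1 CPM per kb), with Plxnc1 at 27.7 ± 2.49 and Plxna4 at 21.1 ± 4.12. The Eph receptors were led by Ephb2 (30.7 ± 2.42), Ephb6 (21.7 ± 2.59) and Ephb1 (17 ± 0.555 CPM per kb), with Epha5 close behind at 15.6 ± 1.21. Control libraries of Ephb6 and Ephb1 did not overlap, while those of Ephb1 and Epha5 did.

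**Figure D1:**
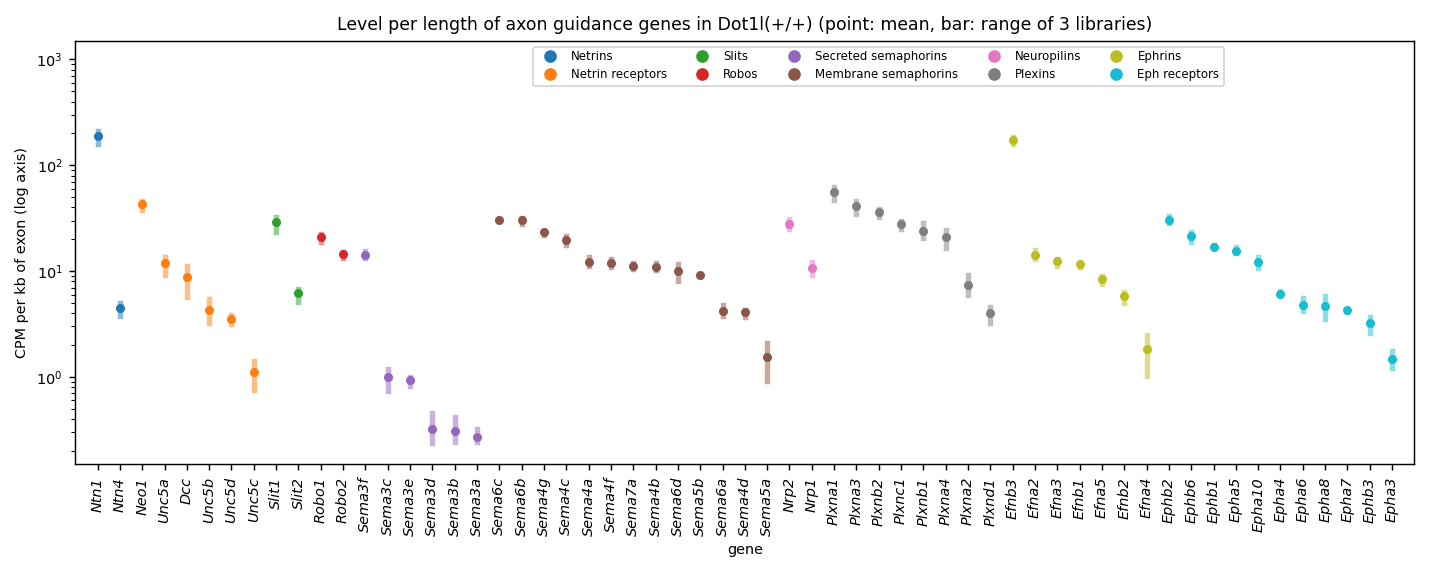
Level per length in Dot1l(+/+) of the 59 members that passed the low-count filter and reached 3 CPM in at least 1 library, on a log axis in CPM per kb of exon; points are means and bars the range of 3 libraries, coloured by family. Ntn1 (189) and Efnb3 (172) lie above all others, and every secreted semaphorin except Sema3f lies near or below 1 CPM per kb.

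Set against Dot1l(+/+), Dot1l(fl/fl) shows which guidance transcripts differ when both Dot1l alleles are floxed. In Dot1l(fl/fl), both neuropilins, 4 of 9 plexins and 1 of 6 netrin receptors were lower by modest amounts at an unadjusted p under 0.05, and no member passed the adjusted threshold. Of 67 members tested, 0 had an edgeR adjusted p under 0.05, and the share of all genes that did was 0%. At an unadjusted p under 0.05, 14 members (20.9%) were lower, beside 5.03% of all genes tested, and 1 (1.49%) was higher, beside 4.24%. The median log2 fold change was -0.15 over the members tested and -0.00 over all genes tested, and 50 of the 67 members (74.6%) lay below 0, beside 50.4% of all genes. Both Dot1l(fl/fl) libraries lay below every Dot1l(+/+) library for 19 members and above for 4, where 11.6% of all genes tested lay below and 12.1% above. The 14 lower members had log2 fold changes between -0.46 and -0.24, that is 0.728 to 0.846 times the Dot1l(+/+) level, and each had a Dot1l(+/+) mean of at least 36.7 CPM. In all 14, the mean of Dot1l(fl/+) lay between those of the other genotypes. Fewer cells with a transcript and less of it per cell cannot be told apart in such sorted pools.

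Receptors held most of the lower members. Of 34 receptors tested 10 (29.4%) were lower and 0 higher at an unadjusted p under 0.05, with a median log2 fold change of -0.20. Of 33 ligands tested 4 (12.1%) were lower and 1 (3.03%) higher, with a median of -0.10. The shares of all genes tested were 5.03% lower and 4.24% higher. In families as small as those below, 1 lower gene alone exceeds that share. By family, both neuropilins, 4 of 9 plexins, 2 of 13 Eph receptors, 1 of 6 netrin receptors and 1 of 4 Robos were lower. On the ligand side 2 of 13 membrane semaphorins, 1 of 8 ephrins, 1 of 2 netrins tested and 0 of 3 Slits were lower. All 9 plexins and all 6 netrin receptors had values below 0, with medians of -0.30 and -0.28. The Eph receptors had a median of 0.06 with 6 of 13 below 0, and 50.4% of all genes tested lay below 0. The plexins include Plxna2 at -0.03 ± 0.14 and Plxnb3, with at most 2.07 CPM in a library, at -0.39 ± 1.03 (SE). Counts of values below 0 hold such scarce members too, Robo3 and Robo4 among them.

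**Figure D2:**
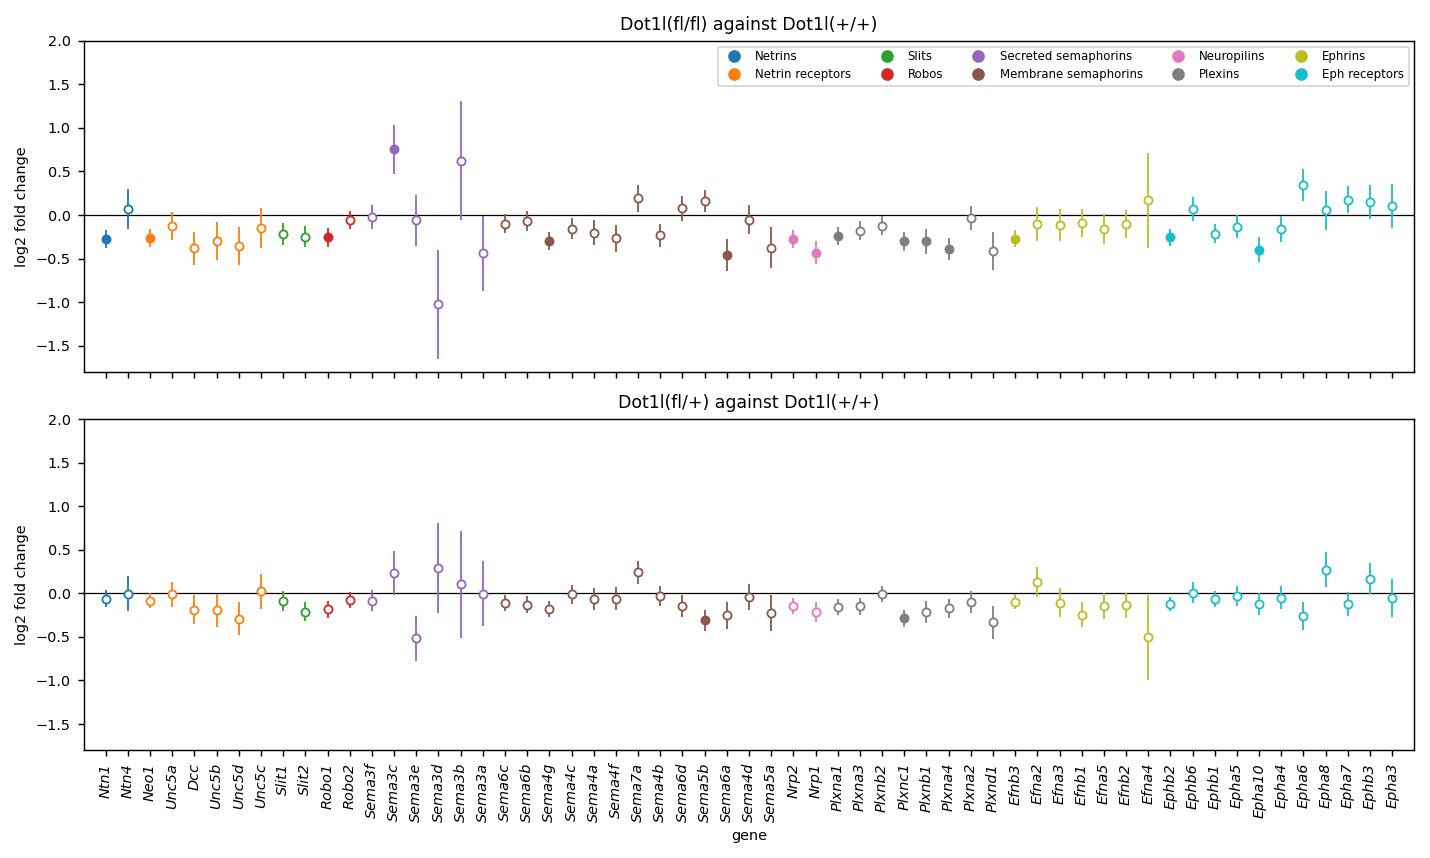
Log2 fold change with its standard error for the same 59 members, in Dot1l(fl/fl) against Dot1l(+/+) above and Dot1l(fl/+) against Dot1l(+/+) below; filled points have an unadjusted p under 0.05. Filled points in the upper panel all lie below 0 except Sema3c at 0.75, and the lower panel has filled points for Plxnc1 and Sema5b.

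Nrp1, which encodes neuropilin 1, the co-receptor of class 3 semaphorins and of the vascular growth factor Vegf, had the smallest p of the members (ENSMUSG00000025810, chromosome 8, 128358604 to 128503363 on GRCm38). Nrp1 was at 119, 90.7 and 105 CPM in Dot1l(+/+), 93.4, 97.3 and 80.4 CPM in Dot1l(fl/+) and 82.8 and 72.5 CPM in the Dot1l(fl/fl) libraries. Both Dot1l(fl/fl) values were below all 3 controls, and 2 of the Dot1l(fl/+) values lay inside the control range. Nrp1 had a log2 fold change of -0.43 ± 0.13 (SE, edgeR p 0.00328 unadjusted and 0.269 adjusted). A microRNA gene lies on its exons on the same strand, so a few of its reads could belong to either. Nrp1 is also made by endothelial cells. The 10 endothelial markers summed to 6.75 to 13.1 CPM in Dot1l(+/+), 6.45 to 20.3 CPM in Dot1l(fl/+) and 11.9 to 14.0 CPM in Dot1l(fl/fl). Only 2 of the 10, Flt1 and Erg, were below 1 CPM in every library. Of the 9 tested, 0 were lower and 1 higher in Dot1l(fl/fl) than in Dot1l(+/+) at an unadjusted p under 0.05 by edgeR. The shares of all genes tested were 5.03% and 4.24%. Nrp2, the co-receptor preferred by Sema3f, was at 322, 297 and 365 CPM in Dot1l(+/+), 294, 299 and 296 in Dot1l(fl/+) and 264 and 278 with both alleles floxed. Its Dot1l(fl/fl) libraries lay below all others, and Nrp2 had a log2 fold change of -0.28 ± 0.10 (SE, edgeR p 0.0121 unadjusted and 0.355 adjusted).

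Plxna4, the signalling partner of neuropilins for class 3 semaphorins and a receptor of class 6 semaphorins, followed (ENSMUSG00000029765, chromosome 6, 32144268 to 32588192). Plxna4 was at 314, 232 and 344 CPM in Dot1l(+/+), 273, 266 and 251 CPM in Dot1l(fl/+) and 212 and 242 CPM in the Dot1l(fl/fl) libraries. The second control library lay between both Dot1l(fl/fl) values, so the groups overlapped. Plxna4 had a log2 fold change of -0.39 ± 0.13 (SE, edgeR p 0.00557 unadjusted and 0.298 adjusted). Plxnc1, the receptor of Sema7a, was at 239.7, 208 and 247 CPM in Dot1l(+/+), 203, 194 and 171 in Dot1l(fl/+) and 185 and 191 with both alleles floxed. All 5 libraries with a floxed allele lay below the 3 controls, and Plxnc1 had a log2 fold change of -0.30 ± 0.11 (SE, edgeR p 0.0116 unadjusted and 0.349 adjusted). Plxna1, the most abundant plexin per length, was at 514, 429.6 and 569.8 CPM in Dot1l(+/+), 453, 449 and 453 in Dot1l(fl/+) and 415 and 438 with both alleles floxed, with a log2 fold change of -0.24 ± 0.10 (SE, edgeR p 0.0269 unadjusted and 0.461 adjusted), or -0.14 with Dot1l(+/+) 3 left out. The other lower plexin was Plxnb1, a receptor of class 4 semaphorins, at 220.4, 199 and 274 CPM in Dot1l(+/+), 187, 208 and 202 in Dot1l(fl/+) and 150.3 and 225 with both alleles floxed, where 1 Dot1l(fl/fl) library lay far below the controls and the other among them. Plxnb1 had a log2 fold change of -0.30 ± 0.14 (SE, edgeR p 0.0437 unadjusted and 0.521 adjusted), or -0.04 with the library labelled Dot1l(fl/fl) 1 left out and -0.62 with the other left out. Plxna3 and Plxnb2 had log2 fold changes of -0.18 ± 0.11 and -0.12 ± 0.10 (SE), neither under an unadjusted p of 0.05.

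The membrane semaphorin Sema4g, a neuronal class 4 member, had the next smallest p after Nrp1 and Plxna4 (ENSMUSG00000025207, chromosome 19, 44989101 to 45003397). Sema4g was at 207, 189 and 206 CPM in Dot1l(+/+), 178, 169.7 and 184 CPM in Dot1l(fl/+) and 166 and 161 CPM in the Dot1l(fl/fl) libraries. The genotypes did not overlap: every control lay above every Dot1l(fl/+) library, and these above both Dot1l(fl/fl) libraries. Sema4g had a log2 fold change of -0.30 ± 0.10 (SE, edgeR p 0.00853 unadjusted and 0.331 adjusted). Sema6a, a transmembrane ligand of A-type plexins, was at 32.8, 35.3 and 42.1 CPM in Dot1l(+/+), 31.3, 33.8 and 27.4 in Dot1l(fl/+) and 24.6 and 29 with both alleles floxed, with a log2 fold change of -0.46 ± 0.18 (SE, edgeR p 0.0171 unadjusted and 0.398 adjusted). Sema6c and Sema6b, which were the most abundant membrane semaphorins, had log2 fold changes of -0.10 ± 0.10 and -0.07 ± 0.11 (SE). Sema7a was at 34.7, 39.1 and 36.8 CPM in Dot1l(+/+), 46.6, 42.2 and 42.1 in Dot1l(fl/+) and 41.6 and 42.7 with both alleles floxed, with a log2 fold change of 0.19 ± 0.15 (SE, edgeR p 0.216 unadjusted and 0.769 adjusted); its libraries with a floxed allele all lay above the controls.

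Sema3c, a secreted semaphorin that acts through neuropilins, was the single member higher at an unadjusted p under 0.05 (ENSMUSG00000028780, chromosome 5, 17574281 to 17730268). Sema3c was at 5.29, 7.86 and 8.44 CPM in Dot1l(+/+), 7.69, 8.15 and 9.59 CPM in Dot1l(fl/+) and 11.8 and 12.6 CPM in the Dot1l(fl/fl) libraries. Both Dot1l(fl/fl) values exceeded all others, from a low level. Sema3c had a log2 fold change of 0.75 ± 0.28 (SE, edgeR p 0.0128 unadjusted and 0.36 adjusted), with a range from 0.58 to 0.89 as each library was left out. Sema3f, the abundant member of its family, was at 68.7, 79.8 and 74.6 CPM in Dot1l(+/+), 70.6, 62.3 and 77.7 in Dot1l(fl/+) and 65.1 and 81.8 with both alleles floxed, and its genotypes overlapped, with a log2 fold change of -0.02 ± 0.14 (SE). Sema3a was at 3.51, 3.39 and 4.46 CPM in Dot1l(+/+), 4.27, 3.02 and 4.04 in Dot1l(fl/+) and 2.79 and 2.81 with both alleles floxed, with a log2 fold change of -0.44 ± 0.43 (SE, edgeR p 0.318 unadjusted and 0.841 adjusted). Sema3e was at 9.19, 7.66 and 9.18 CPM in Dot1l(+/+), 6.12, 6.68 and 5.41 in Dot1l(fl/+) and 9.46 and 7.13 with both alleles floxed, with a log2 fold change of -0.06 ± 0.29 (SE).

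Ntn1 was the most abundant member in CPM as well as per length (ENSMUSG00000020902, chromosome 11, 68209364 to 68400823). Ntn1 was at 1320, 990.0 and 1243 CPM in Dot1l(+/+), 1175, 1126 and 1108 CPM in Dot1l(fl/+) and 1091 and 861 CPM in the Dot1l(fl/fl) libraries. The control library Dot1l(+/+) 2 lay between the Dot1l(fl/fl) values. Ntn1 had a log2 fold change of -0.28 ± 0.10 (SE, edgeR p 0.0137 unadjusted and 0.368 adjusted), and 1 library decided its size: the value was -0.46 with the library labelled Dot1l(fl/fl) 1 left out and -0.12 with the other left out. Neo1, the leading netrin receptor, was at 384, 332 and 405 CPM in Dot1l(+/+), 368, 349.7 and 339.6 in Dot1l(fl/+) and 313 and 309 with both alleles floxed. Its Dot1l(fl/fl) libraries lay below all others, and Neo1 had a log2 fold change of -0.26 ± 0.10 (SE, edgeR p 0.0142 unadjusted and 0.372 adjusted). Dcc was at 126, 75.8 and 147 CPM in Dot1l(+/+), 107, 114 and 85.4 in Dot1l(fl/+) and 76.4 and 102 with both alleles floxed, a wide spread in which Dot1l(+/+) 2 had the lowest value of all libraries. Dcc had a log2 fold change of -0.38 ± 0.19 (SE, edgeR p 0.054 unadjusted and 0.548 adjusted). Unc5a and Unc5c had log2 fold changes of -0.12 ± 0.16 and -0.15 ± 0.23 (SE), and their genotypes overlapped.

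Robo1, the most abundant Slit receptor per length, was at 374, 311 and 365 CPM in Dot1l(+/+), 338, 314 and 271 in Dot1l(fl/+) and 306 and 279.8 with both alleles floxed. Its Dot1l(fl/fl) libraries lay below the controls and overlapped Dot1l(fl/+), and Robo1 had a log2 fold change of -0.25 ± 0.11 (SE, edgeR p 0.0292 unadjusted and 0.471 adjusted). Robo2 was at 259, 228 and 245 CPM in Dot1l(+/+), 248, 232 and 213 in Dot1l(fl/+) and 234 and 235 with both alleles floxed, a difference within the spread of the libraries, with a log2 fold change of -0.06 ± 0.10 (SE, edgeR p 0.589 unadjusted and 0.947 adjusted). Slit1 and Slit2 had log2 fold changes of -0.21 ± 0.13 and -0.25 ± 0.12 (SE), with unadjusted p of 0.108 and 0.0534 by edgeR. Slit3 and Robo3 were near the limit of detection, at most 2.46 and 1.13 CPM in a library, and no direction was read for them.

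Of the ephrins and their receptors, Efnb3 was at 549.8, 504 and 593 CPM in Dot1l(+/+), 535, 509 and 497 in Dot1l(fl/+) and 500.1 and 409 with both alleles floxed. The Dot1l(fl/fl) libraries lay below the controls, Efnb3 had a log2 fold change of -0.27 ± 0.10 (SE, edgeR p 0.0115 unadjusted and 0.349 adjusted), and the value was -0.14 with the library labelled Dot1l(fl/fl) 2 set aside and -0.43 with the other set aside. Ephb2, a receptor for B-type ephrins and the most abundant Eph receptor, was at 378, 362 and 421 CPM in Dot1l(+/+), 347, 363 and 357 in Dot1l(fl/+) and 315 and 334 with both alleles floxed, with both Dot1l(fl/fl) libraries below all others. Ephb2 had a log2 fold change of -0.25 ± 0.10 (SE, edgeR p 0.0138 unadjusted and 0.368 adjusted). Epha10, a member that lacks kinase activity, was at 98, 76.8 and 89 CPM in Dot1l(+/+), 92, 78.8 and 71.5 in Dot1l(fl/+) and 59.7 and 74.1 with both alleles floxed, with a log2 fold change of -0.40 ± 0.14 (SE, edgeR p 0.0104 unadjusted and 0.345 adjusted) (ENSMUSG00000028876, chromosome 4, 124880899 to 124917800). The Epha10 value was -0.25 with the library labelled Dot1l(fl/fl) 1 left out (edgeR p 0.141 unadjusted) and -0.56 with the other left out. Ephb1, which has been linked to DA axon targeting, was at 123, 119 and 115 CPM in Dot1l(+/+), 111, 113 and 118 in Dot1l(fl/+) and 106 and 99.9 with both alleles floxed, and its Dot1l(fl/fl) libraries lay below all others, with a log2 fold change of -0.21 ± 0.11 (SE, edgeR p 0.062 unadjusted and 0.568 adjusted). Epha5, Efna5 and Efnb2 had log2 fold changes of -0.13 ± 0.13, -0.16 ± 0.17 and -0.10 ± 0.16 (SE). Efna2, Efna3 and Ephb6 had -0.10 ± 0.19, -0.12 ± 0.19 and 0.07 ± 0.14 (SE) on the same log2 scale.

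**Figure D3:**
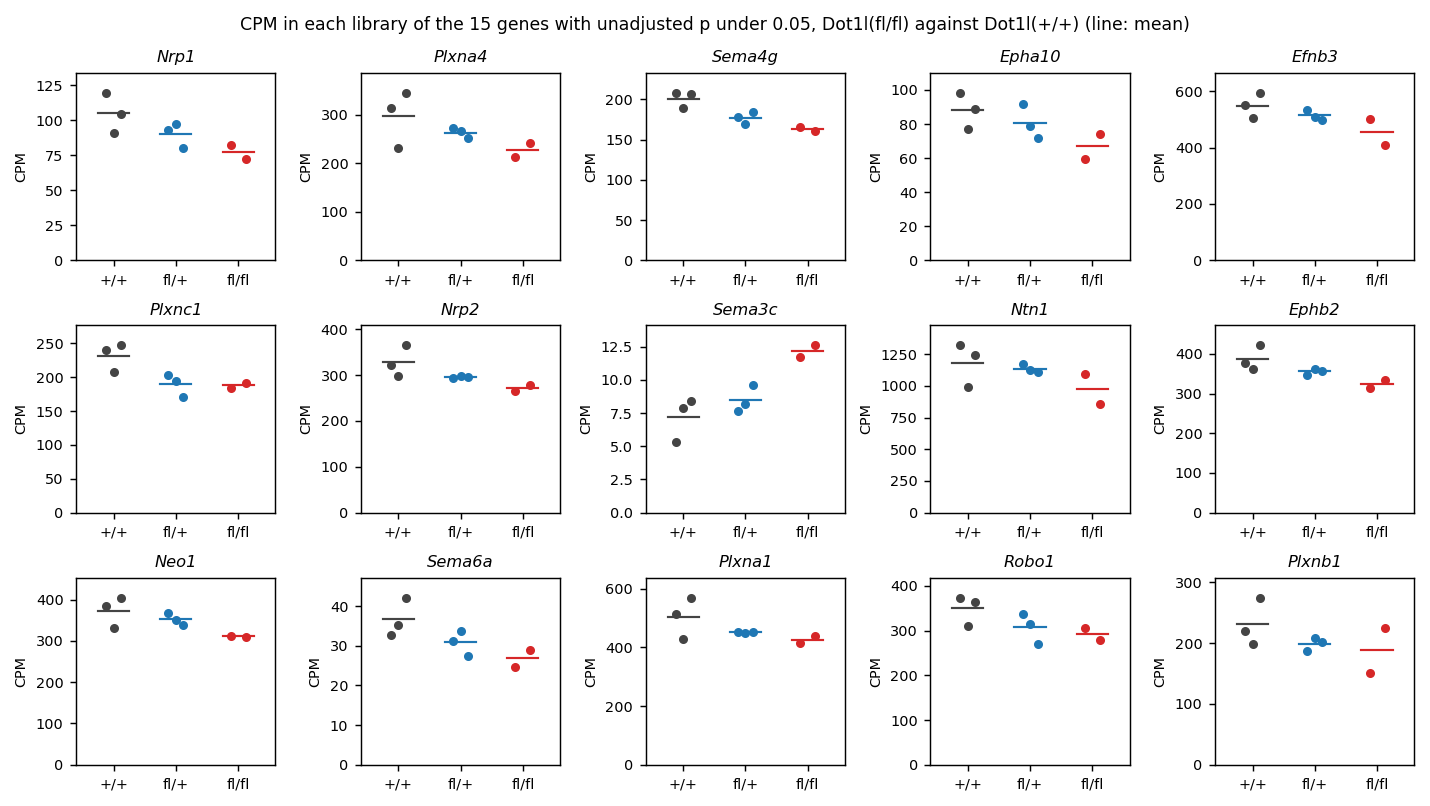
CPM in each library, from 0, of the 15 members of unadjusted p under 0.05 when Dot1l(fl/fl) is set against Dot1l(+/+), ordered by p; points are libraries and lines group means. The 14 lower members step down from +/+ through fl/+ to fl/fl in their means. A single control reaches the fl/fl values in Plxna4, Ntn1 and Plxna1, and Dot1l(+/+) 1 and Dot1l(+/+) 2 do so in Plxnb1.

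The position of single libraries mattered. The median over the members of log2 CPM minus the Dot1l(+/+) mean was 0.05, -0.15 and 0.12 in the controls, -0.09, -0.14 and -0.13 in Dot1l(fl/+), and -0.13 and -0.19 with both alleles floxed. Dot1l(+/+) 2 therefore lay among the libraries with floxed alleles. It was the lowest control for 47 of the 67 members tested, beside 42.3% of all genes tested, and for 13 of the 14 lower members. Without it 22 members were lower and 1 higher at an unadjusted p under 0.05, beside 7.27% and 6.26% of all genes, and Plxna4 had an edgeR adjusted p of 0.0287, 1 of 75 genes past the adjusted threshold there. Without Dot1l(+/+) 3 the count was 5 lower, beside 3.02% of all genes, and 2 higher. Leaving out the library labelled Dot1l(fl/fl) 2, whose Dot1l level was in the control range, left 13 lower and 0 higher, beside 6.61% and 4.48% of all genes. Nrp1, Sema4g and Plxnc1 were the 3 of the 14 lower members that had an unadjusted p under 0.05 whichever of the 5 libraries was left out.

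**Figure D4:**
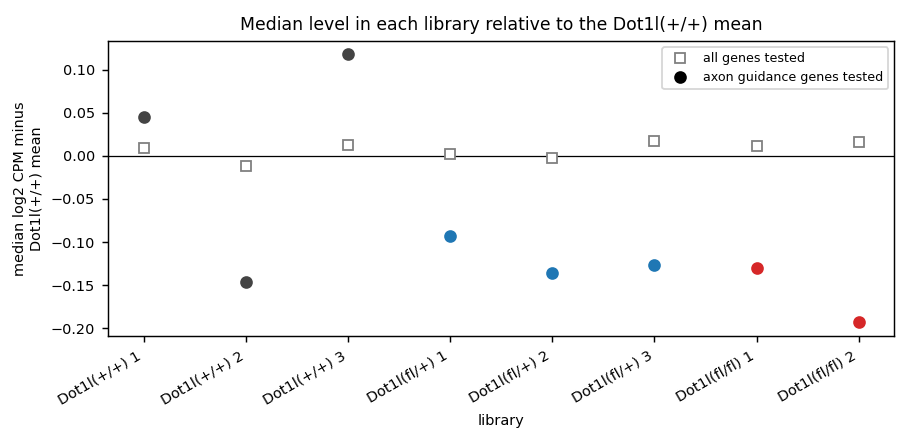
Median over 67 members (filled points, coloured by genotype) and over all genes tested (open squares) of log2 CPM minus the Dot1l(+/+) mean, in each of 8 libraries. Members lie at 0.05 and 0.12 in Dot1l(+/+) 1 and 3 and at or below -0.09 in the other 6 libraries, Dot1l(+/+) 2 included, while all genes stay near 0.

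Guidance genes are long, and length went with the difference. The 67 members spanned a median of 69.0 kb of genome, beside 18.5 kb for all genes tested, and 35 lay in the longest quartile. In that quartile, with spans above 50.7 kb, the median log2 fold change of all genes was -0.08 and 10.9% were lower at an unadjusted p under 0.05, whereas in the shortest quartile the median was 0.09 and 1.41% were lower. Members within the longest quartile had a median of -0.21, with 9 of 35 lower. Quartiles 2 and 3 held 16 and 15 members, with medians of -0.11 and -0.15 and with 2 and 3 lower, beside 3.08% and 4.78% of all genes in those quartiles. When exon length and GC content were offset in each library, 8 members were lower, beside 4.61% of all genes tested, and the median of the members was -0.12 beside -0.03 for all genes. The offset uses exon length, not gene span. These 8 were Sema6a with a log2 fold change of -0.42, Nrp1 with -0.37, Efnb3 and Epha10 with -0.30, Plxnc1 and Plxna4 with -0.26, Neo1 with -0.22 and Ntn1 with -0.21. Of them Efnb3 had the smallest unadjusted p, 0.00522 by edgeR. Nrp2 and Sema4g were at -0.18, Plxnb1 at -0.17, Robo1 at -0.14, Plxna1 at -0.12 and Ephb2 at -0.11, each with an unadjusted p of 0.0749 or more by edgeR. Abundant genes are also easier to separate, and with genes of a mean count of at least 50 alone, 15 of 58 members were lower, beside 6.51% of all genes tested. The part of length in the difference was not tested.

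**Figure D5:**
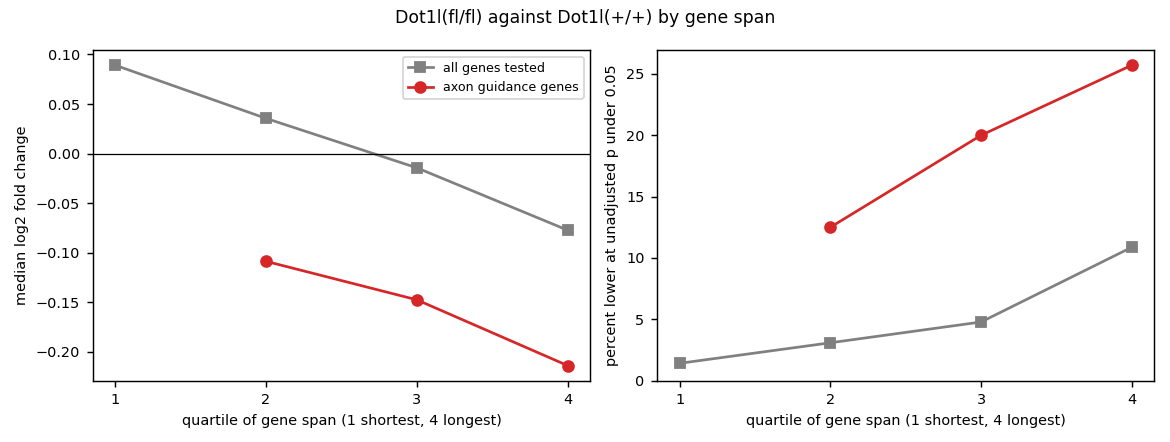
Median log2 fold change (left) and percent of genes lower at unadjusted p under 0.05 (right) for Dot1l(fl/fl) against Dot1l(+/+), by quartile of gene span, for all genes tested (grey) and for the guidance genes (red; 16, 15 and 35 members in quartiles 2 to 4, the single member of quartile 1 not drawn). Medians of all genes go from 0.09 in the shortest to -0.08 in the longest quartile, and those of the guidance genes from -0.11 to -0.21.

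In Dot1l(fl/+) against Dot1l(+/+), which asks whether 1 floxed allele is enough for a difference, 2 of 67 members (2.99%) were lower at an unadjusted p under 0.05, beside 2.86% of all genes tested, and 0 were higher, beside 2.16%. None passed the adjusted threshold (0 members, 0% of all genes). Plxnc1 had a log2 fold change of -0.29 ± 0.10 (SE, edgeR p 0.00685 unadjusted and 0.94 adjusted), and Sema5b, a transmembrane class 5 semaphorin, one of -0.31 ± 0.12 (SE, edgeR p 0.0126 unadjusted and 0.94 adjusted). Plxnc1 had an unadjusted p of 0.0542 by edgeR with Dot1l(fl/+) 3 left out. The median of the members was -0.11 and 55 of 67 (82.1%) lay below 0, beside -0.01 and 51.0% for all genes tested. This median became -0.04 with the length and GC offset, and the number lower became 17 without Dot1l(+/+) 2, beside 4.55% of all genes. For the members that led the other comparison, Nrp1 had a log2 fold change of -0.22 ± 0.12 (SE, edgeR p 0.076 unadjusted), Plxna4 of -0.17 ± 0.11 (SE, edgeR p 0.135 unadjusted) and Sema4g of -0.18 ± 0.09 (SE, edgeR p 0.0592 unadjusted). Both comparisons share the control libraries, so values below 0 in each are not independent.

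Dot1l(fl/fl) against Dot1l(fl/+) compares 2 floxed alleles with 1 and tests whether the differences from the controls are unequal. Of 67 members 2 (2.99%) were lower, beside 2.16% of all genes tested, and 2 were higher, beside 1.86%, at an unadjusted p under 0.05. Again 0 members passed the adjusted threshold, as did 0% of all genes, and the median was -0.08 beside 0.00. Sema5b (ENSMUSG00000052133, chromosome 16, 35541145 to 35664732) was at 66.5, 64.7 and 63 CPM in Dot1l(+/+), 51.1, 54.9 and 50.6 in Dot1l(fl/+) and 68.3 and 76.7 with both alleles floxed. The Dot1l(fl/+) libraries lay below, and both Dot1l(fl/fl) libraries above, all controls, and Sema5b had a log2 fold change of 0.47 ± 0.13 (SE, edgeR p 0.00121 unadjusted and 0.925 adjusted). Epha6, an Eph receptor for A-type ephrins, was at 22.3, 23.8 and 29.7 CPM in Dot1l(+/+), 22.8, 19.9 and 20.8 in Dot1l(fl/+) and 32.6 and 31.9 with both alleles floxed, with both Dot1l(fl/fl) libraries above all others and a log2 fold change of 0.61 ± 0.18 (SE, edgeR p 0.00293 unadjusted and 0.998 adjusted). Ntn1 had a log2 fold change of -0.22 ± 0.10 (SE, edgeR p 0.0472 unadjusted and 0.998 adjusted), or -0.41 with Dot1l(fl/fl) 1 left out and -0.06 with Dot1l(fl/fl) 2 left out. Sema3d, a scarce secreted semaphorin with at most 5.54 CPM in a library, had one of -1.31 ± 0.63 (SE, edgeR p 0.0481 unadjusted and 0.998 adjusted), and from -1.95 to -0.76 as single libraries were left out, the first with Dot1l(fl/fl) 2 left out and the last with Dot1l(fl/+) 1 left out. Sema5b and Epha6 kept an unadjusted p under 0.05 whichever library of these genotypes was left out (at most 0.021 and 0.0188 by edgeR), with log2 fold changes from 0.39 to 0.55 and from 0.56 to 0.67.

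A slope across 0, 1 and 2 floxed alleles used all 8 libraries at once. At an unadjusted p under 0.05, 17 of 67 members (25.4%) were lower per allele, beside 5.61% of all genes tested, and 1 (Sema3c) was higher, beside 4.48%. None had an edgeR adjusted p under 0.05 (0 members, 0% of all genes), with the smallest at 0.199 for Nrp1. These 17 included the 14 lower members above and added Slit2, Dcc and Plxnd1. Whatever their slope, 37 of the 67 members had group means that stepped down with each allele, beside 22.2% of all genes tested. Nrp1 had a log2 difference per allele of -0.22 ± 0.06 (SE, edgeR p 0.00194 unadjusted), Plxna4 of -0.19 ± 0.06 (SE, edgeR p 0.0036 unadjusted) and Sema4g of -0.15 ± 0.05 (SE, edgeR p 0.0044 unadjusted). Plxnc1, Nrp2 and Ephb2 had -0.16 ± 0.05, -0.14 ± 0.05 and -0.13 ± 0.04 (SE) per allele, and Efnb3 and Epha10 -0.13 ± 0.05 and -0.19 ± 0.07. For Dcc the value was -0.19 ± 0.09 (SE, edgeR p 0.0426 unadjusted), and it ranged from -0.31 without Dot1l(+/+) 2 to -0.09 without Dot1l(+/+) 3. Efnb3 was at -0.07 per allele with Dot1l(fl/fl) 2 left out, and Epha10 at -0.12 with Dot1l(fl/fl) 1 left out. With the offset for length and GC content 6 members were lower, beside 4.78% of all genes, and Nrp2 and Sema4g were at -0.09 and Ephb2 at -0.05 per allele. The trend and the pairwise comparisons use the same libraries.

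Other genes of the pathway were taken as a list of 62, all of them tested. The list was chosen with earlier results of these data known, so its counts are a description and no independent support. It holds adaptors, collapsin response mediators and other proteins inside the cell. Further cues and cell-surface proteins such as Draxin, L1cam and Dscam are also in it. In Dot1l(fl/fl) against Dot1l(+/+), 19 (30.6%) were lower and 0 higher at an unadjusted p under 0.05, beside 5.03% and 4.24% of all genes tested, the median log2 fold change was -0.14, and 0 were past the adjusted threshold. Srgap1, whose protein acts downstream of Robo receptors, was at 260.8, 230.8 and 285.6 CPM in Dot1l(+/+), 246.9, 224.4 and 220.5 CPM in Dot1l(fl/+) and 188.5 and 188.8 CPM in the Dot1l(fl/fl) libraries. Its Dot1l(fl/fl) libraries lay below all others, and Srgap1 had a log2 fold change of -0.46 ± 0.11 (SE, edgeR p 0.000304 unadjusted and 0.18 adjusted). Trim67, a ubiquitin ligase that binds Dcc, had a log2 fold change of -0.44 ± 0.11 (SE, edgeR adjusted p 0.2). Dscam, a cell adhesion receptor that also binds netrin-1, had one of -0.42 ± 0.12 (SE, edgeR adjusted p 0.248). Of the same list, 3 were lower and 0 higher in Dot1l(fl/+) against Dot1l(+/+), beside 2.86% and 2.16% of all genes tested, and 6 lower and 0 higher in Dot1l(fl/fl) against Dot1l(fl/+), beside 2.16% and 1.86%. Along with these genes, 10 of the 15 midbrain DA markers were lower and 0 higher by the same unadjusted measure in the comparison of Dot1l(fl/fl) with the controls, and whether the differences have a common source was not tested.

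Since several members lay lower together, the bases before their start sites were compared, using promoters of RefSeq on GRCm38.p6. The table held 59 of the 72 members. The 250 bases before the start are shown for the 4 lower members of smallest p in that table and for Sema3c, the higher one, written 5′ to 3′ on the gene's strand, with capitals marking GC boxes, the motif GGGCGG on either strand. The start is that of RefSeq and can differ from the GENCODE gene start used above. The windows of Nrp1, Epha10 and Sema3c lie inside the gene spans given above, and that of Sema4g lies almost wholly inside its span.
Nrp1 chr8:128358823-128359072 (+ strand): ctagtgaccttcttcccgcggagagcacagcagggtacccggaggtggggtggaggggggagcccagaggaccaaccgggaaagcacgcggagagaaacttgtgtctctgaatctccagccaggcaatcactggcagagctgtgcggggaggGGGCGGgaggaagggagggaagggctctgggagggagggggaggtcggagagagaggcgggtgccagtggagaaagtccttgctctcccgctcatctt
Sema4g chr19:44989094-44989343 (+ strand): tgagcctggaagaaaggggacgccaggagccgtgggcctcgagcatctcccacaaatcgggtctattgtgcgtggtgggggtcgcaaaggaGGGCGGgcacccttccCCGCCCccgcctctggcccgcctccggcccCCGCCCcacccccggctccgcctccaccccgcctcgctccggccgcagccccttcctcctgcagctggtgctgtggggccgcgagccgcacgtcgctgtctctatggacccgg
Epha10 chr4:124881535-124881784 (+ strand): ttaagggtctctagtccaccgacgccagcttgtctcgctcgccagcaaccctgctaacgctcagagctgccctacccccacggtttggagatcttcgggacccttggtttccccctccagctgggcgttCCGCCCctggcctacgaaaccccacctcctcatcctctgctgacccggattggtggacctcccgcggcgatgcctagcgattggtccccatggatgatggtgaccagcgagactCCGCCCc
Plxnc1 chr10:94944846-94945095 (- strand): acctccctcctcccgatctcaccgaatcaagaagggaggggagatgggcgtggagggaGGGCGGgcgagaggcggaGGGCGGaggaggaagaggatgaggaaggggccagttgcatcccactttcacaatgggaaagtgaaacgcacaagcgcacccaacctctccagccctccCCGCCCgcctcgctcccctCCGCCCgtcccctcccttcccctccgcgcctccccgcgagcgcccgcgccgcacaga
Sema3c chr5:17574566-17574815 (+ strand): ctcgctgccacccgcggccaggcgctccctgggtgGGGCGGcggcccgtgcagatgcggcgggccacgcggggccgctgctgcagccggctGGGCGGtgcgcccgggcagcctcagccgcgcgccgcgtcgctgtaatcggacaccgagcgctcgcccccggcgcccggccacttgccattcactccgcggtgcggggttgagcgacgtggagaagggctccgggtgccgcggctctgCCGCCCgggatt
A GC box was present in 43 of the 59 members and in 7 of the 9 lower members with an entry, beside 32.7% of the 32851 promoters of the table. The motif TATAAA occurred in 2 of 59 members, beside 12.4% of all promoters, and in 0 of the 9 lower ones. NBRE, the motif AAAGGTCA that Nr4a nuclear receptors bind, occurred in 0 of 59 members, beside 1.34% of all promoters, in these windows and on both strands. The median number of CG pairs in the window was 16 in members, 22 in the lower members with an entry and 6 in all promoters, and Sema3c, which was higher, had 39. These counts describe the windows and do not separate the higher from the lower members. For each member 1 promoter was taken, whereas the values for all promoters cover every entry of the table, alternative promoters and genes without expression included. No share was taken over the genes tested, so a trait particular to guidance genes cannot be read from them.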

How the data were processed

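Libraries were assigned to 3 genotypes and numbered as their titles give them. What the authors deposited for each library analysed here is a file of raw read counts, 1 whole number per Ensembl gene. The study's methods name a strand-preserving kit and the build GRCm38.p4, and the submitters' processing notes name bcl2fastq 2.17, Trimmomatic 0.30 and DESeq2 1.10.1. The aligner, the counter and its strand setting are not given in the sources used here, so the 17 members with another gene on their exons are uncertain. Deposited result tables served only to pair identifiers with symbols; the authors' fold changes, standard errors and p-values in them were left aside.

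The main test was edgeR 4.0.16's quasi-likelihood F test in R 4.3.3, with TMM factors and filterByExpr (17988 genes kept), 1 fit of all genotypes without covariates, and Benjamini-Hochberg adjustment across the genes kept (threshold 0.05). Numbers of members at an unadjusted p under 0.05 are descriptions beside the share of all genes. CPM used TMM factors, log2 CPM a prior count of 2, and level per length the exon union of GENCODE M21, which held 47310 identifiers. The study took matched sets of the genotypes from each litter, but neither the labels nor its methods say that a replicate number marks such a set, and p-values measure the spread between these pools. Scripts were tested on simulated data. Since the labels do not say that a replicate number marks a litter, the main fit had no block. The blocked counts are given with the alternatives. After centring within each genotype, same-numbered libraries correlated at -0.031 to 0.0453 and other pairs at -0.0514 to 0.0449. With 2 Dot1l(fl/fl) libraries the centring forces their correlations to mirror each other. These values therefore cannot decide whether a number marks a matched set.

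Named members were 22 chosen for known roles, the 3 most abundant per length in each family, those of smallest unadjusted p under 0.05 (up to 8 in each comparison) and those that failed the filter. Plxnb1, Plxnd1 and Sema6a were added after their values were seen. Members and lists were chosen with earlier results of these data known. Alternatives were RLE factors, no filter, a minimum mean count of 50, DESeq2 1.42.0, each pair of genotypes alone, a replicate block, a length and GC offset (splines of 4 degrees of freedom), block and offset together, and each library left out.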

Additional observations from a re-analysis of the deposited data

How the results depend on the processing

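The median of the members stayed below 0 in every comparison and under every alternative run, and none of the log2 changes at an unadjusted p under 0.05 reversed. Of the other printed changes in Dot1l(fl/fl) against Dot1l(+/+), those near 0 did: with the offset Robo2 was at 0.06, Sema3e 0.01, Sema3f 0.02 and Unc5c 0.00, with the replicate block Sema3f was at 0.02 and Unc5c 0.01, and with both Robo2 was at 0.03, Sema3f 0.02 and Unc5c 0.13. As libraries were left out, Efna2 ranged from -0.45 to 0.17, Ephb6 from -0.02 to 0.15, Sema3e from -0.28 to 0.12, Sema3f from -0.19 to 0.14 and Unc5c from -0.36 to 0.07. In Dot1l(fl/fl) against Dot1l(+/+), the number of members past the adjusted threshold was 0 with edgeR and 1 with DESeq2 (Sema4g, adjusted p 0.0473, among 186 genes). DESeq2 fitted 23694 genes and gave no adjusted p to some of them, Sema3a, Sema3c, Sema3e and Unc5c included. The edgeR number was 0 to 1 as Dot1l(+/+) libraries were left out. The number at an unadjusted p under 0.05 was 15 in the main fit, beside 5.03% lower and 4.24% higher of all genes tested. It became 9 with the length and GC offset, beside 4.61% and 2.2%. With libraries left out it ranged from 7 (without Dot1l(+/+) 3, beside 3.02% and 2.83%) to 23 (without Dot1l(+/+) 2, beside 7.27% and 6.26%). The share of all genes thus moved with the setting as well. In Dot1l(fl/+) against Dot1l(+/+) the number of members was 2, beside 2.86% lower and 2.16% higher of all genes tested. It was 4 when no filter was used, 1 with the offset and 1 with the replicate block and offset. As libraries were left out it was 1 to 17, the last without Dot1l(+/+) 2, beside 4.55% and 3.87% of all genes. In Dot1l(fl/fl) against Dot1l(fl/+) it was 4, beside 2.16% lower and 1.86% higher of all genes tested. It was 7 under the replicate block and offset, beside 3.80% and 1.28%, and 3 to 4 with a Dot1l(fl/+) library left out. For the allele trend, edgeR called 0 members, 2 of 172 genes without a filter (Nrp1 and Plxna4), DESeq2 called 4 of 272 genes (Ephb2, Nrp1, Nrp2 and Sema4g), and leaving out libraries gave 0 to 5, with 5 of 268 genes (Dcc, Nrp1, Ntn1, Plxna1 and Plxna4) without Dot1l(+/+) 2 and 1 of 106 (Plxnb1) without the library labelled Dot1l(fl/fl) 2. Its unadjusted count was 18, with 7 under the offset, 10 under the block and offset, and 8 to 23 as libraries were left out. The causes of these differences were not tested.

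The replicate block alone gave a median of -0.118 in Dot1l(fl/fl) against Dot1l(+/+). With it 12 members had an unadjusted p under 0.05, 11 lower and 1 higher, where the main fit had 14 lower and 1 higher. The shares of all genes tested under the block were 4.11% lower and 3.58% higher. In both fits 0 members passed the adjusted threshold. Where a Dot1l(fl/fl) library is left out, the remaining one is assumed to vary like the other genotypes. Dot1l(fl/fl) had 2 libraries, the shallowest of the series, and the power for differences of the size seen here was not measured. In simulated counts of this comparison, 26% of genes changed 1.5-fold had an edgeR adjusted p under 0.05. The changed genes were drawn at random from all genes kept, scarce ones included. That share therefore does not give the power for members as abundant as the lower ones. The 14 lower members, at 0.728 to 0.846 times the Dot1l(+/+) level, changed by less, and changes that small were not simulated.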
